A study of Mus musculus with 18 samples.

Results

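Cadherins and claudins are the adhesion molecules of adherens junctions and tight junctions, and their transcripts were followed here while mouse ESCs with and without DNA methyltransferases differentiated in EBs. Members were taken by name. They are all probe sets whose single listed gene symbol is Cdh or Cldn followed by a number, without Cdh5, the cadherin of endothelial cells. This gave 45 of the 19938 genes named by a single symbol, and 48 of the 35512 probe sets on the array, 24 for 22 cadherin genes and 24 for 23 claudin genes, because Cdh18, Cdh24 and Cldn10 each have 2 probe sets. The rule used no signal. Of the 24 cadherin probe sets, 19 are for classical cadherins of type I or type II, and 5 are for cadherins outside these types (Cdh13, Cdh16, Cdh17, Cdh23 and Cdh26), so the set is wider than the classical cadherins.

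The wt cells were J1 ESCs of strain 129Sv/Jae. Dnmt1-/- ESCs of the same strain lack Dnmt1, the enzyme that copies methylation onto newly made DNA. TKO ESCs, again J1, are Dnmt1-/-, Dnmt3a-/- and Dnmt3b-/-, and so also lack both enzymes that set methylation *de novo*. Each genotype was 1 ESC line, which was harvested undifferentiated (day 0) and as hanging drop EBs at day 4 and day 16. The 9 groups of genotype and day have 2 arrays each, 18 arrays in all, described as independent biological duplicates.

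Cadherins span the cell membrane, bind cadherins of the neighbouring cell in the presence of calcium, and are linked to actin by catenins. E-cadherin (Cdh1) is typical of epithelia and of ESCs, and a switch from E-cadherin to N-cadherin (Cdh2) accompanies the formation of mesoderm during gastrulation. Claudins are membrane proteins that form the strands of tight junctions, where some of them seal the space between epithelial cells and others form pores for ions. In EBs, an epithelium of endoderm forms on the outside while mesoderm and its derivatives form inside.

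The arrays gave log2 signals after RMA, which range from 1.21 to 14, with medians of 5.77 to 5.90 per array and correlations of 0.981 to 0.991 between the arrays of a group across probe sets. Dnmt1 signals were 9.16 to 9.77 on wt arrays and 8.40 to 8.86 on mutant arrays. All 10 pluripotency markers listed were above the median of all signals in ESCs of each genotype. The arrays of Dnmt1-/- EBs at day 4 stood apart, with a mean of these 10 markers of 8.82 in replicate 1 and 7.54 in replicate 2, against 7.31 on each wt array of that day. The RNA came from whole cultures, in which fewer cells of a type and less RNA per cell cannot be told apart.

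Promoter windows, from 250 bases before to 50 bases after the start of a transcript, were taken from RefSeq (GRCm38.p6) for 32 of the 45 genes, which have 42 windows. Cdh1, Cdh2, Cdh3, Cdh4, Cdh11, Cdh13, Cdh16, Cdh17, Cdh19, Cldn8, Cldn9, Cldn13 and Cldn23 had none in the table used. The windows were searched on both strands for the E-box CACCTG, which reads CAGGTG on the other strand and is the type of site that Snail and Zeb factors bind. It was found in 8 of the 42 windows (19.0%) and in 20.2% of all 32851 windows of the table. By gene, 10 genes with a window changed at least 2-fold at a false discovery rate below 0.05 in any comparison, and 4 of them held the motif. So did 2 of the other 22, Cdh7 in each of its windows and Cldn14. Cdh1, Cdh2, Cdh3, Cdh11, Cdh13, Cdh17, Cldn8 and Cldn23 changed likewise but had no window. By window the share of members was near that of the table, and by gene it was not counted for the table. A link between the motif and the changes was not tested. The 4 genes are Cldn3 and Cldn4, which are neighbours in the genome, Cldn6 and Cldn7, and their windows are shown in the direction of transcription with the motif in capitals. They lie on GRCm38.p6 at chr5:134985964-134986263 (plus strand, Cldn3), chr5:134946885-134947184 (minus strand, Cldn4), chr17:23679115-23679414 (plus strand, Cldn6) and chr11:69965171-69965470 (plus strand, the second of 2 Cldn7 windows).
Cldn3: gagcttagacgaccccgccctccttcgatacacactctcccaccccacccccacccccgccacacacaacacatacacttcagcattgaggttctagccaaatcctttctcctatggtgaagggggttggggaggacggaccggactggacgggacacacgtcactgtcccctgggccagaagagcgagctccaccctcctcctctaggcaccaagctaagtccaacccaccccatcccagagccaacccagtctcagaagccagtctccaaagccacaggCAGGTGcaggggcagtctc
Cldn4: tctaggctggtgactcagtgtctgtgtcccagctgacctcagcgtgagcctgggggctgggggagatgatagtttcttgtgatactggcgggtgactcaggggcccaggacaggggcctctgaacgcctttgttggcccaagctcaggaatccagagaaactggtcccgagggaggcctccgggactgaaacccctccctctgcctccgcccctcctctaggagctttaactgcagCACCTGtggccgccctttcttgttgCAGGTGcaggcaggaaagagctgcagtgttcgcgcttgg
Cldn6: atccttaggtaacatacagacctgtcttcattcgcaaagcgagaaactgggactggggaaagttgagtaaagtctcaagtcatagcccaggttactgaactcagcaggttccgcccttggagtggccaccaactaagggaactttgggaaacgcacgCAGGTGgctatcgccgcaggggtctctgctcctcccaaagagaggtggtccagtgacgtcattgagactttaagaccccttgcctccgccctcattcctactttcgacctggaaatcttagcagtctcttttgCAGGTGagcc
Cldn7: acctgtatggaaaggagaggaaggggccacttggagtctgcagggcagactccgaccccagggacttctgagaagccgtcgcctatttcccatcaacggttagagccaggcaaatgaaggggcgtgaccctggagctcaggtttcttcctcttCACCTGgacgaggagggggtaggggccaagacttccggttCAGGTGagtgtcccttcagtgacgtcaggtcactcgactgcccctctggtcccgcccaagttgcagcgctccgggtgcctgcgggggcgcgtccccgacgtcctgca
Counted from the start site as position 1, the motif begins at 32 in Cldn3, at -14 and 12 in Cldn4, at -93 and 41 in Cldn6 and at -97 and -57 in Cldn7. Such a match is a stretch of letters and not a measured binding site. Windows with at least 2 motifs made up 2.88% of the table and were 3 of the 42 windows of members. These 3 are among the windows shown, which were picked for holding the motif. The 4 windows hold 9, 9, 10 and 17 CpG dinucleotides in this order, with a median of 7 over all windows of the table and of 9 over the 42 windows of members. The methylation of these windows was not analysed here.

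A member was called when its mean log2 signal differed by at least 1 (2-fold) and the false discovery rate was below 0.05 in a limma fit of all 18 arrays, the thresholds used in the study. Fold changes are differences of mean log2 signals with the standard error (SE) of the fit, and adjusted p is the limma p after Benjamini-Hochberg adjustment over all 35512 probe sets. In total 18 of the 48 members were called in at least 1 of 24 comparisons, 9 cadherins and 9 claudins. They are 37.5% of the members, beside 18.5% of all probe sets and 22.9% of the 21789 with 1 gene symbol that were called in any of the 24. The 18 comprise 3 of 5 type I cadherins, 4 of 14 type II cadherins, 2 of 5 other cadherins, 6 of 11 sealing claudins, 1 of 6 channel-forming claudins and 2 of 7 other claudins. Group means differed by 1 or more between the highest and the lowest of the 9 groups in 19 members (39.6%) and in 27.5% of all probe sets.

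**Figure D1:**
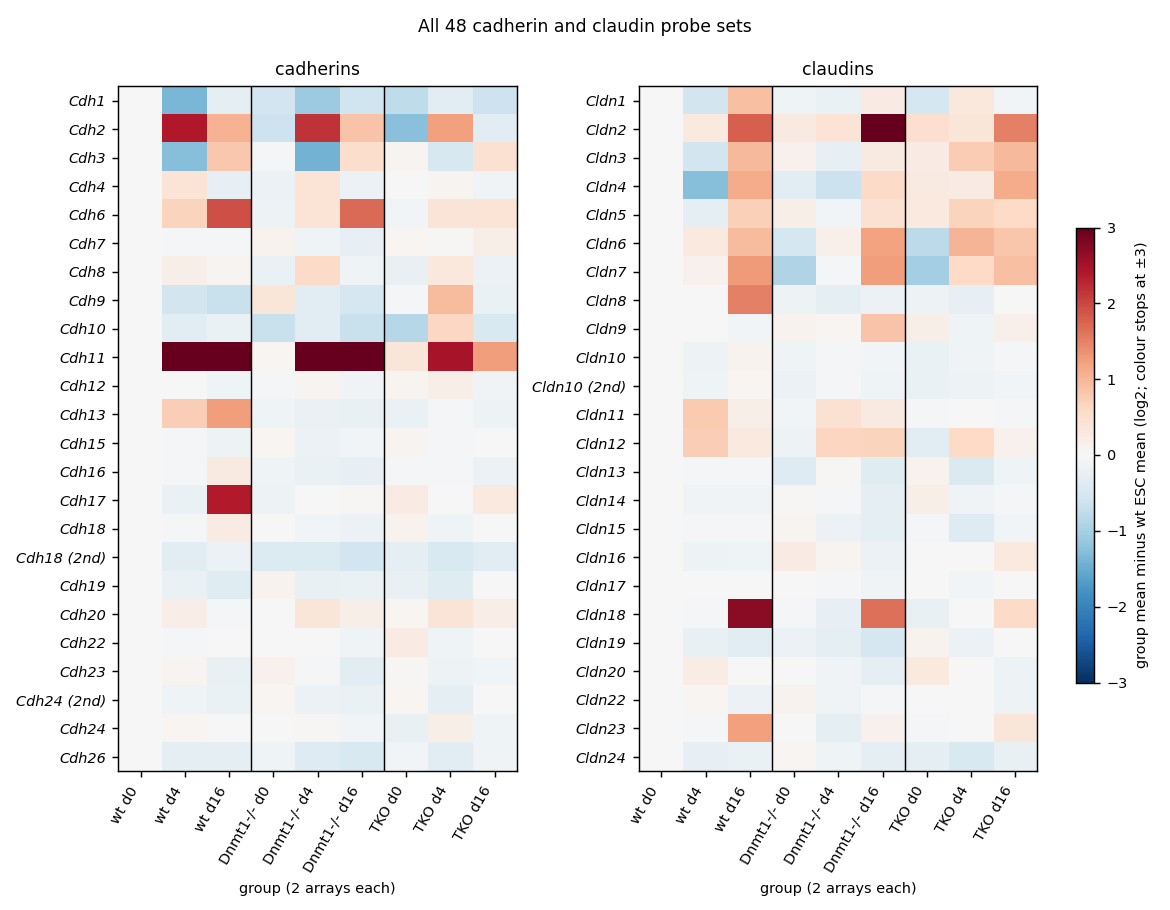
Mean log2 signal of each of the 48 probe sets in the 9 groups, shown as the difference from its own mean in wt ESCs (red higher, blue lower, 2 arrays per group, colours stop at 3). Cdh11 has the widest range (5.42), and 30 probe sets, called in no comparison, span at most 1.05.

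The first question was how the members behave when wt ESCs differentiate. Between day 0 and day 4, 5 members were called, Cdh2 and Cdh11 as higher and Cdh1, Cdh3 and Cldn4 as lower, when 4.51% of all probe sets were called, 2.43% higher and 2.08% lower. Between day 4 and day 16, 12 members were called higher and Cdh2 lower, with 5.87% of all probe sets called, 3.94% higher and 1.93% lower. The 12 are Cdh1, Cdh3, Cdh6, Cdh17, Cldn1, Cldn2, Cldn3, Cldn4, Cldn7, Cldn8, Cldn18 and Cldn23. Over the whole course 10 members were called higher and none lower, against 10.8% of all probe sets called, 6.17% higher and 4.62% lower. The count at an unadjusted p under 0.05 was 2 for lower members in this comparison. Among the 21789 probe sets with 1 gene symbol, as all members have, the shares called were 5.87%, 8% and 14.3% for these wt periods in the same order. The median change of the 24 claudin probe sets from day 4 to day 16 was 0.12 and that of the cadherins 0.02, beside -0.08 for all probe sets.

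In Dnmt1-/- cells, Cdh2 and Cdh11 were called higher and Cdh3 lower between day 0 and day 4 (4.61% of all probe sets called, 2.56% higher and 2.05% lower). From day 4 to day 16 Cdh3, Cdh6, Cldn2, Cldn4, Cldn6, Cldn7 and Cldn18 were called higher (2.7% of all probe sets called, 2.39% higher and 0.313% lower). Without replicate 2 of Dnmt1-/- at day 4 only 4 of these 7 were called, and without replicate 1 at day 16 only 3. From day 0 to day 16 the calls were Cdh2, Cdh6, Cdh11, Cldn2, Cldn6, Cldn7 and Cldn18, all higher (6.9% of all, 4.8% higher and 2.1% lower). TKO cells had 6 calls from day 0 to day 4, which were Cdh2, Cdh9, Cdh10, Cdh11, Cldn6 and Cldn7, all higher (3.17% of all, 2.27% higher and 0.898% lower), or 3 without replicate 1 at day 4. Their 3 calls from day 4 to day 16 were Cdh9, Cdh10 and Cdh11, all lower (1.41% of all, 0.794% higher and 0.617% lower). None of these 3 was called without TKO replicate 1 at day 4 or replicate 2 at day 16, and 1 was called without replicate 2 at day 4. Cldn6 and Cldn7 were the TKO calls from day 0 to day 16, both higher (2.5% of all, 1.87% higher and 0.631% lower). Among probe sets with 1 symbol the shares called were 5.71%, 3.86% and 9% in Dnmt1-/- and 3.99%, 1.85% and 3.01% in TKO for day 0 to 4, day 4 to 16 and day 0 to 16.

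**Figure D2:**
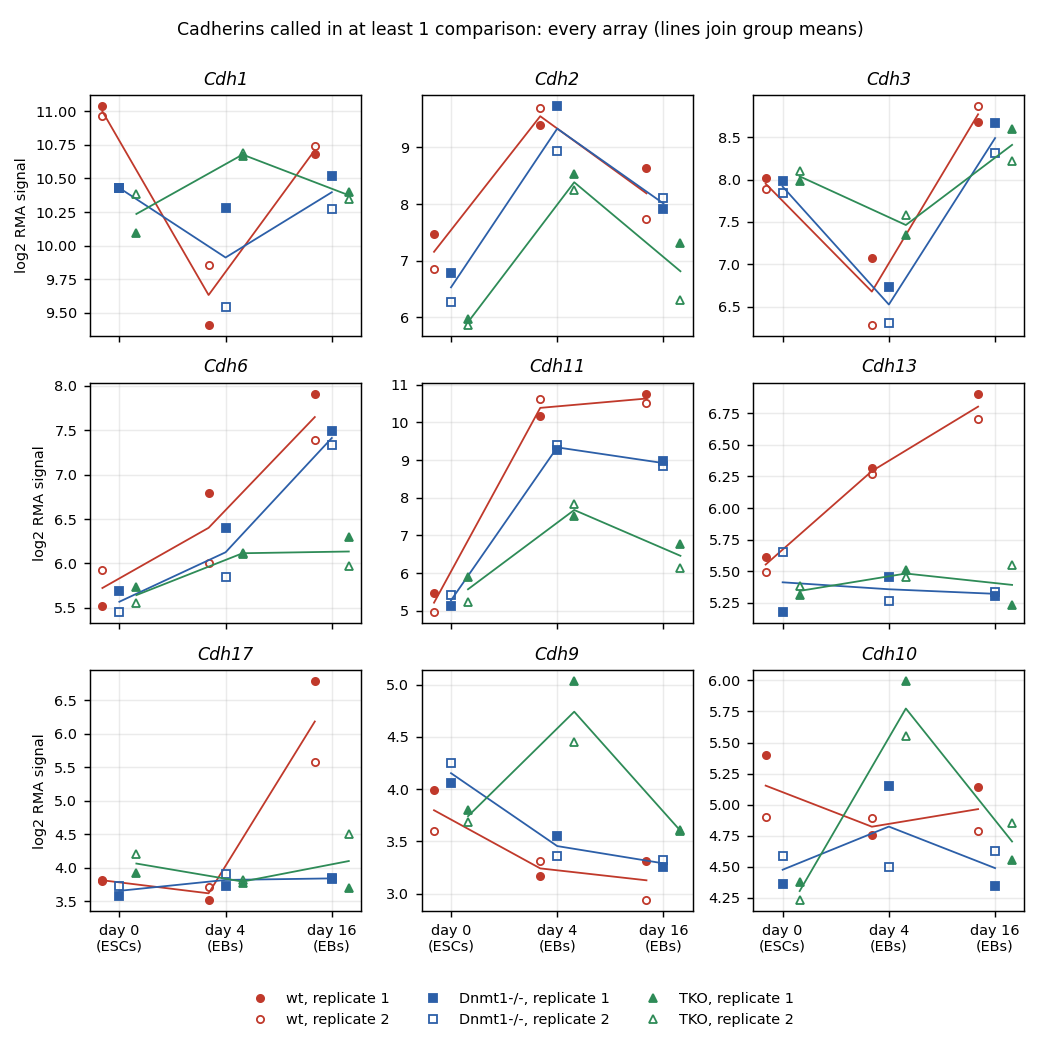
Log2 RMA signal of the 9 called cadherins on each array (filled symbols replicate 1, open symbols replicate 2) at day 0, day 4 and day 16, in wt (red circles), Dnmt1-/- (blue squares) and TKO (green triangles), with lines through the group means. Each panel has its own scale. Cdh11 rises to day 4 in all genotypes, and on all arrays of day 4 and day 16 the wt symbols lie highest and the TKO symbols lowest.

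Among the type I cadherins, Cdh1 had signals of 11.04 and 10.96 in wt ESCs, 9.41 and 9.85 at day 4 and 10.68 and 10.74 at day 16. The gene thus dipped in wt EBs at day 4 by 1.37 on the log2 scale (SE 0.22, adjusted p = 0.00162) and both arrays of that day were below all others of wt. Its return by day 16 was 1.08, a call that was lost without wt day 4 replicate 1 (0.86, adjusted p = 0.0574). In TKO cells the signals were 10.09 and 10.38, then 10.66 and 10.69, then 10.40 and 10.35, with no call between days. The TKO EBs of day 4 were above the wt EBs of that day by 1.05 (SE 0.22, adjusted p = 0.0125). This call was lost without wt replicate 1 (0.82, adjusted p = 0.142), TKO replicate 1 (1.06, adjusted p = 0.0725) or TKO replicate 2 (1.03, adjusted p = 0.0942). The change from day 0 to day 4 differed between TKO and wt by 1.81 (SE 0.30, adjusted p = 0.0140), and that difference was lost in 4 of 8 fits without 1 array, namely without replicate 1 of wt at day 0, of wt at day 4 or of TKO at day 0, or without TKO replicate 2 at day 4 (adjusted p up to 0.0679). Dnmt1-/- EBs at day 4 were split, at 10.28 in replicate 1, which also had the higher pluripotency markers, and 9.54 in replicate 2.

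Cdh3 (P-cadherin), the neighbour of Cdh1 in the genome, was at 8.01 and 7.89 in wt ESCs, at 7.07 and 6.29 at day 4 and at 8.67 and 8.86 at day 16. The course of Cdh3 was similar in Dnmt1-/- cells, with 7.99 and 7.85, then 6.74 and 6.31, then 8.66 and 8.32. In TKO cells it was at 7.98 and 8.10, then 7.34 and 7.58, then 8.60 and 8.22, and no TKO change was called, although that from day 4 to day 16 (0.95, adjusted p = 0.0629) was after further quantile normalization (1.03, adjusted p = 0.0291). The fall to day 4 was 1.27 in wt (SE 0.24, adjusted p = 0.00517), and it was not called without wt day 4 replicate 2 (-0.88, adjusted p = 0.0451). In Dnmt1-/- it was -1.39 (SE 0.24, adjusted p = 0.00292). The rise to day 16 was 2.09 in wt (SE 0.24, adjusted p = 0.000118) and 1.96 in Dnmt1-/- (SE 0.24, adjusted p = 0.000401). The fall in TKO was less deep by 0.70 (SE 0.34), a difference that was not called (adjusted p = 0.532).

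Cdh2 (N-cadherin) went the other way. The wt arrays gave 7.47 and 6.84 at day 0, 9.40 and 9.70 at day 4 and 8.64 and 7.74 at day 16. Dnmt1-/- arrays gave 6.79 and 6.27, then 9.73 and 8.94, then 7.90 and 8.12. TKO arrays gave 5.96 and 5.86, then 8.52 and 8.25, then 7.31 and 6.31, below both wt arrays on each day. The rise to day 4 was called in each genotype and kept without any 1 array. It was 2.40 in wt (SE 0.38, adjusted p = 0.00168), 2.81 in Dnmt1-/- (SE 0.38, adjusted p = 0.000568) and 2.47 in TKO (SE 0.38, adjusted p = 0.00219). At day 4 the TKO difference of Cdh2 from wt was -1.17 and was not called (adjusted p = 0.115). It was called in a fit of only the arrays compared (adjusted p = 0.0486) and with the replicate block (adjusted p = 0.0323). The later fall in wt (-1.36) was called with all arrays and lost without wt day 4 replicate 1 (-1.51, adjusted p = 0.0790) or 2 (-1.21, adjusted p = 0.155) or day 16 replicate 2 (-0.92, adjusted p = 0.274). The fall of Cdh2 after day 4 was -1.32 in Dnmt1-/- cells (SE 0.38, adjusted p = 0.0683) and -1.57 in TKO cells (SE 0.38, adjusted p = 0.0501), which missed the threshold. The TKO fall was called with joint adjustment of all comparisons (adjusted p = 0.0313), a trended robust fit (adjusted p = 0.0472), quantile normalization (-1.57, adjusted p = 0.0415), omission of dim probe sets (adjusted p = 0.0365) and the replicate block (adjusted p = 0.0134), and the Dnmt1-/- fall with the block alone (adjusted p = 0.0174). At day 16 Cdh2 was lower in TKO than in wt by 1.38 on the log2 scale, which was lost without wt replicate 1 (-0.93, adjusted p = 0.235) or TKO replicate 2 (-0.88, adjusted p = 0.269), and reached -1.88 at its largest when another array was left out. From day 0 to day 16 Cdh2 rose by 1.48 in Dnmt1-/- cells, not called without Dnmt1-/- day 0 replicate 2 (1.22, adjusted p = 0.138) or day 16 replicate 1 (1.59, adjusted p = 0.0641) or 2 (1.38, adjusted p = 0.0987). The remaining type I cadherins, Cdh4 (R-cadherin) and Cdh15 (M-cadherin, of muscle cells), were not called in any comparison, with group means that spanned 0.646 and 0.256.

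Cdh11, a type II cadherin of mesenchymal cells, had the largest changes of all members. Its wt signals were 5.47 and 4.95 in ESCs, 10.16 and 10.62 at day 4 and 10.76 and 10.51 at day 16. In Dnmt1-/- cells they were 5.12 and 5.43, then 9.26 and 9.41, then 8.99 and 8.86. In TKO cells they were 5.90 and 5.24, then 7.53 and 7.82, then 6.77 and 6.15. The genotypes overlapped in ESCs and were fully separated at both later days, in the order wt, Dnmt1-/- and TKO. By day 4 Cdh11 had risen by 5.18 in wt (36.2-fold, SE 0.27, adjusted p = 1.89e-06), by 4.06 in Dnmt1-/- (16.7-fold, SE 0.27, adjusted p = 1.10e-05) and by 2.11 in TKO (4.31-fold, SE 0.27, adjusted p = 0.000761).

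At day 16 Cdh11 was lower than in wt by 1.71 on the log2 scale in Dnmt1-/- EBs (3.28-fold, SE 0.27, adjusted p = 0.00223) and by 4.18 in TKO EBs (18.1-fold, SE 0.27, adjusted p = 1.10e-06). TKO EBs were also lower than Dnmt1-/- EBs, with a log2 difference of -2.46 (SE 0.27, adjusted p = 0.00108). At day 4 the TKO difference from wt was -2.71 (SE 0.27, adjusted p = 8.30e-05). The Dnmt1-/- difference at day 4 was -1.05 and was not called (SE 0.27, adjusted p = 0.178). The TKO difference from Dnmt1-/- at day 4 was called (-1.66) but lost without Dnmt1-/- replicate 2 (-1.59, adjusted p = 0.127) or TKO replicate 1 (-1.51, adjusted p = 0.101) or 2 (-1.81, adjusted p = 0.0900). Between day 0 and day 16 the TKO change fell short of the wt change by 4.54 (SE 0.38, adjusted p = 4.19e-05), and this call was kept without any 1 array. The corresponding shortfall of Dnmt1-/-, 1.78 (SE 0.38, adjusted p = 0.0418), was lost without any 1 of the 8 arrays involved (-1.52 to -2.04, adjusted p up to 0.175). From day 4 to day 16 Cdh11 fell by 1.22 in TKO, which was lost without TKO day 4 replicate 1 (-1.37, adjusted p = 0.136) or 2 (-1.07, adjusted p = 0.225) or day 16 replicate 2 (-0.91, adjusted p = 0.288). Cdh8, its neighbour in the genome and another type II cadherin, was not called in any comparison.

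The mean signal of 10 fibroblast markers had the genotype order of Cdh11 at day 16. It was 10.01 and 10.10 in wt, 8.85 and 8.40 in Dnmt1-/- and 6.67 and 6.13 in TKO EBs, against 5.71 on both wt ESC arrays. At day 4 it was 6.71 and 6.70 in wt, 6.24 and 6.59 in Dnmt1-/- and 5.94 and 5.91 in TKO EBs. The markers thus rose in wt mainly after day 4, when Cdh11 was already high. From day 4 to day 16 their mean rose in each mutant, while the mean of Cdh11 fell. Of the 10 markers, 8 were lower in TKO than in wt EBs at day 16 and 6 in Dnmt1-/- EBs. Those with the largest TKO differences were Dcn (-6.60), Lum (-6.39), Col3a1 (-4.93) and Col1a2 (-4.85), all extracellular matrix genes. None of the 10 fibroblast markers was below the median of all signals in wt or Dnmt1-/- EBs of day 16, and 3 were in TKO EBs. Their part in the Cdh11 result was not tested.

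Cdh6, Cdh9, Cdh10 and Cdh12 are type II cadherins that follow each other in the genome with no other protein-coding gene between them. Cdh6 (K-cadherin, of developing kidney) was at 5.52 and 5.93 in wt ESCs and at 7.91 and 7.39 in wt EBs of day 16. In Dnmt1-/- cells it went from 5.69 and 5.45 to 7.49 and 7.34, and in TKO cells from 5.73 and 5.56 to 6.30 and 5.97. From day 0 to day 16 Cdh6 rose by 1.93 in wt (SE 0.27, adjusted p = 0.000227) and by 1.85 in Dnmt1-/- cells (SE 0.27, adjusted p = 0.000606). In TKO EBs of day 16 it was below wt by 1.52 (SE 0.27, adjusted p = 0.00247) and by 1.28 below Dnmt1-/- EBs (SE 0.27, adjusted p = 0.0356). The last call was lost without any 1 of the 4 arrays (-1.11 to -1.45, adjusted p up to 0.298). The difference between the TKO and wt changes of Cdh6 from day 0 to day 16 was -1.44 (SE 0.38, adjusted p = 0.0524). It missed the threshold there but was called after further quantile normalization (-1.48, adjusted p = 0.0323), without the dimmest 30% of probe sets (adjusted p = 0.0398) and with the replicate number as a block (adjusted p = 0.0178). From day 4 to day 16 the rise of Cdh6 was 1.25 in wt and 1.29 in Dnmt1-/- cells. The wt rise was not called without wt day 4 replicate 2 (0.86, adjusted p = 0.0877) or day 16 replicate 1 (0.99, adjusted p = 0.0708). The Dnmt1-/- rise was not called without day 4 replicate 2 (1.01, adjusted p = 0.145) or day 16 replicate 1 (1.21, adjusted p = 0.131) or 2 (1.36, adjusted p = 0.0591).

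Cdh9 and Cdh10, which are known from neurons, stood out in TKO EBs at day 4, although both are dim. Their group means there, 4.74 and 5.77, were below the median of all signals (5.84). Cdh9 signals there were 5.03 and 4.45, while the other 16 arrays had 2.94 to 4.25. Cdh10 signals there were 5.99 and 5.55, above the 4.23 to 5.40 of the other 16 arrays. Cdh9 was above wt by 1.50 at day 4 (SE 0.20, adjusted p = 0.000779). Cdh10 was above wt by 0.95 (SE 0.25, adjusted p = 0.0428), below the 2-fold threshold. The change of Cdh9 from day 0 to day 4 exceeded the wt change by 1.56 in TKO (SE 0.28, adjusted p = 0.0202), and that of Cdh10 did so by 1.80 (SE 0.35, adjusted p = 0.0245). For Cdh10 this includes a lower start, with ESC means of 4.305 in TKO and 5.153 in wt. The Cdh10 difference was lost in each fit without 1 array except that without wt day 0 replicate 2 (adjusted p up to 0.111). For Cdh9 the difference was lost without replicate 1 of wt at day 0 or day 4, without either TKO ESC array, or without TKO day 4 replicate 1 (adjusted p up to 0.0969). Cdh12, next to Cdh10, kept its group means within 0.300 of each other.

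Within TKO cells the rise of Cdh9 to day 4 was 1.00, just at the threshold, and was lost when each array was centred on its median (0.97). It was also lost without TKO day 0 replicate 1 (1.06, adjusted p = 0.0540) or 2 (0.94, adjusted p = 0.0794) or day 4 replicate 1 (0.71, adjusted p = 0.130). The rise of Cdh10 to day 4 was 1.47, lost without TKO day 4 replicate 1 (1.25, adjusted p = 0.0574). By day 16 both were lower again, Cdh9 by 1.14 and Cdh10 by 1.07. The Cdh9 fall was not called without TKO day 4 replicate 1 (-0.85, adjusted p = 0.133) or day 16 replicate 1 (-1.15, adjusted p = 0.0540) or 2 (-1.13, adjusted p = 0.0827). The Cdh10 fall was lost without any 1 of the 4 arrays (-0.85 to -1.29, adjusted p up to 0.304). Cdh9 was also called higher in TKO than in Dnmt1-/- EBs at day 4 (1.29), except without Dnmt1-/- replicate 2 (1.19, adjusted p = 0.113) or TKO replicate 1 (1.00, adjusted p = 0.0801). The mean of 10 neural markers was 7.02 and 6.82 in TKO EBs of day 4, 5.95 and 6.02 in wt and 6.32 and 6.04 in Dnmt1-/- EBs. Of these markers 3 were called higher in TKO than in wt EBs, Nefl (3.74), Pax6 (1.74) and Elavl3 (1.01). In ESCs the mean of the 10 was 7.14 and 6.81 in wt and 6.82 and 6.75 in TKO. From day 0 to day 4, 4 of them were called lower in wt, and 2 higher and 2 lower in TKO cells. The part of these markers in the Cdh9 and Cdh10 values was not tested.

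Outside the classical types, Cdh13 and Cdh17 were called higher in wt EBs over time and in neither mutant. Cdh13 (T-cadherin), which is anchored by a lipid and has no cytoplasmic part, was at 5.61 and 5.49 in wt ESCs, 6.32 and 6.27 at day 4 and 6.90 and 6.70 at day 16. All 12 mutant arrays were between 5.17 and 5.65. Its rise from day 0 to day 16 was 1.25 in wt (SE 0.17, adjusted p = 0.000141), while the changes were -0.09 in Dnmt1-/- and 0.05 in TKO cells, with an SE of 0.17 each. At day 16 Cdh13 was lower by 1.48 in Dnmt1-/- (SE 0.17, adjusted p = 0.000160) and by 1.41 in TKO EBs (SE 0.17, adjusted p = 0.000106). Its change differed from wt by -1.20 in TKO (SE 0.23, adjusted p = 0.0107), kept without any 1 array. In Dnmt1-/- the difference was -1.34 (SE 0.23, adjusted p = 0.0170), which was lost without either wt ESC array, Dnmt1-/- ESC replicate 2 or either Dnmt1-/- array of day 16 (adjusted p up to 0.0713).

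Cdh17 (LI-cadherin), a cadherin of the gut epithelium, was at 3.82 and 3.81 in wt ESCs, 3.52 and 3.72 at day 4 and 6.78 and 5.58 at day 16. Both wt arrays of day 16 were above all others, since the 12 mutant arrays had 3.58 to 4.50. The wt rise from day 4 to day 16 was 2.56 (5.91-fold, SE 0.32, adjusted p = 0.000200). At day 16 Cdh17 was lower in Dnmt1-/- EBs by 2.34 (SE 0.32, adjusted p = 0.000718) and in TKO EBs by 2.08 (SE 0.32, adjusted p = 0.000801). Its change from day 0 to day 16 differed from wt by -2.33 in TKO (SE 0.45, adjusted p = 0.0101), kept without any 1 array. In Dnmt1-/- cells the difference was -2.18 (SE 0.45, adjusted p = 0.0344), called only without wt day 16 replicate 1 or 2 when 1 array was left out (adjusted p up to 0.141 in the other 6 fits).

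**Figure D3:**
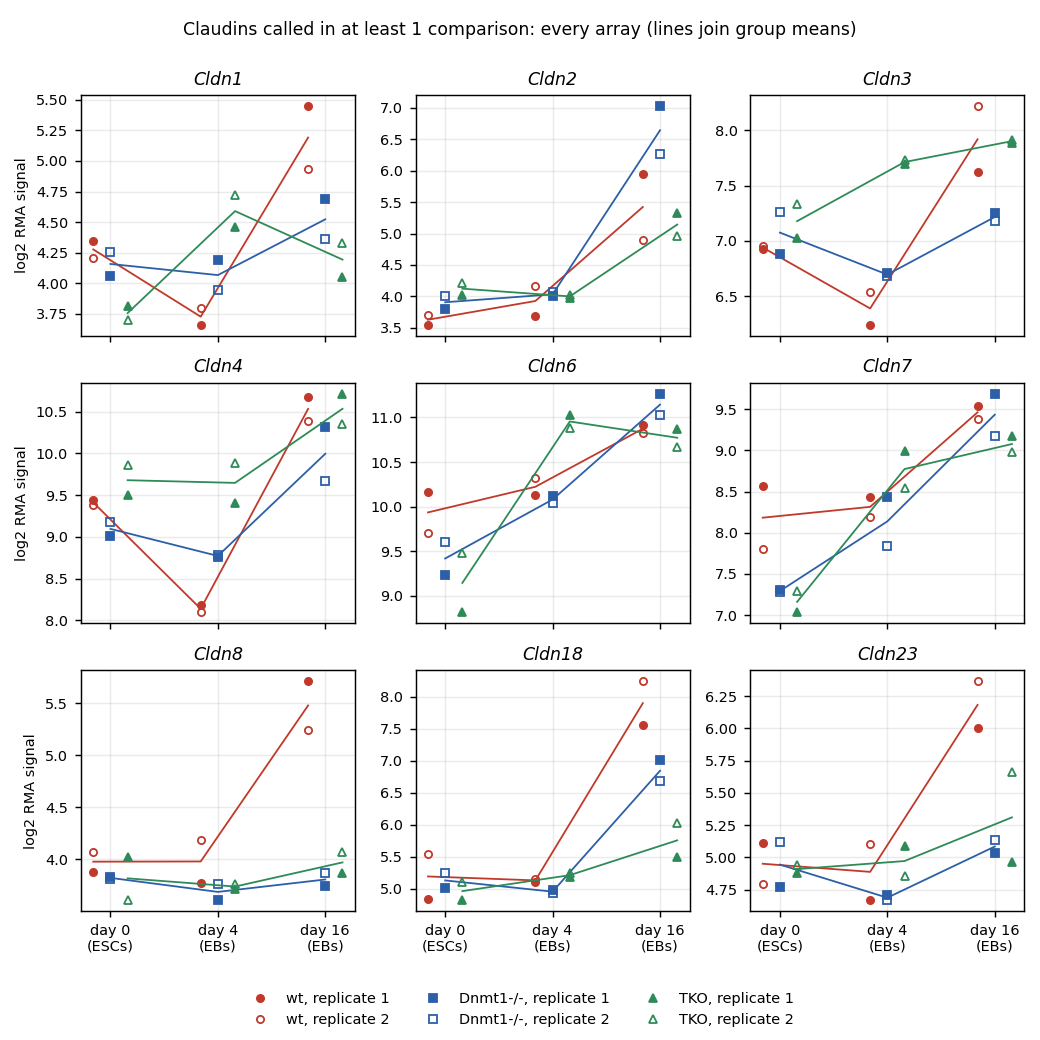
Log2 RMA signal of the 9 called claudins on each array (filled symbols replicate 1, open symbols replicate 2) at day 0, day 4 and day 16, in wt (red circles), Dnmt1-/- (blue squares) and TKO (green triangles), with lines through the group means. Each panel has its own scale. Cldn3 and Cldn4 are lowest in wt EBs at day 4, and Cldn8 is raised in wt EBs at day 16 alone.

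Of the sealing claudins, the adjacent genes Cldn3 and Cldn4 encode the receptors of the *Clostridium perfringens* enterotoxin. Cldn4 was at 9.44 and 9.38 in wt ESCs, 8.18 and 8.09 at day 4 and 10.68 and 10.39 at day 16. In TKO cells it was at 9.50 and 9.86, then 9.41 and 9.88, then 10.71 and 10.36, and in Dnmt1-/- cells at 9.01 and 9.18, then 8.76 and 8.78, then 10.32 and 9.67. In wt cells Cldn4 thus fell by 1.27 (SE 0.23, adjusted p = 0.00349) and then rose by 2.40 (5.27-fold, SE 0.23, adjusted p = 2.23e-05). The rise of Cldn4 over the whole wt course was 1.12, not called without wt day 16 replicate 1 (0.98, adjusted p = 0.0286). The rise of Cldn4 in Dnmt1-/- from day 4 to day 16 was 1.22, not called without day 16 replicate 1 (0.90, adjusted p = 0.0981).

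Cldn3 was at 6.93 and 6.95 in wt ESCs, 6.24 and 6.54 at day 4 and 7.62 and 8.22 at day 16. TKO arrays had 7.03 and 7.33, then 7.70 and 7.73, then 7.89 and 7.92. Dnmt1-/- arrays had 6.88 and 7.27, then 6.71 and 6.68, then 7.25 and 7.18, with no call between days. The later rise of Cldn3 in wt was 1.53 (SE 0.19, adjusted p = 0.000241). At day 4 both genes were higher in TKO than in wt EBs, Cldn3 by 1.32 (2.50-fold, SE 0.19, adjusted p = 0.00150) and Cldn4 by 1.51 (2.85-fold, SE 0.23, adjusted p = 0.00171), and both calls were kept without any 1 array. Cldn3 was also called higher in TKO than in Dnmt1-/- EBs (1.02), a call that was lost without either TKO array or either Dnmt1-/- array of day 4 (1.00 to 1.04, adjusted p up to 0.208) and after further quantile normalization (0.99). From day 4 to day 16 the TKO changes were smaller than in wt by 1.34 for Cldn3 (SE 0.28, adjusted p = 0.0189) and 1.51 for Cldn4 (SE 0.32, adjusted p = 0.0224). These differences were lost in 6 of 8 and 5 of 8 fits without 1 array. For Cldn3 only the fits without wt day 4 replicate 2 or wt day 16 replicate 1 kept it (adjusted p up to 0.0810 in the others). For Cldn4 the fits without either wt day 4 array, wt day 16 replicate 1, or replicate 2 of TKO at day 4 or day 16 lost it (adjusted p up to 0.0998). At day 16 the TKO means of Cldn3 and Cldn4 were within 0.02 of the wt means on the log2 scale.

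Cldn1, needed for the barrier of the skin, was at 4.35 and 4.21, then 3.66 and 3.79, then 5.45 and 4.93 in wt cells. In TKO cells it was at 3.81 and 3.70, then 4.46 and 4.72, then 4.05 and 4.33, so that it was highest at day 4, the day on which it was lowest in wt. Dnmt1-/- arrays had 3.94 to 4.68 over all days. The highest group mean of Cldn1 (5.19, wt EBs of day 16) was below the median of all signals (5.84). The wt rise from day 4 to day 16 was 1.46 (adjusted p = 0.000303), and the TKO change over these days fell short of it by 1.86 (SE 0.27, adjusted p = 0.00213). That difference was kept without any 1 array. The opposite difference over the first 4 days, 1.38 (SE 0.27, adjusted p = 0.0248), was lost without any 1 of the 8 arrays (1.25 to 1.51, adjusted p up to 0.122).

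Cldn6 and Cldn7 had higher means at day 16 than at day 0 in all genotypes. Cldn6, a claudin of early embryonic epithelia, was at 10.17 and 9.70 in wt ESCs and 10.92 and 10.83 at day 16. That rise of 0.94 was below the 2-fold threshold (SE 0.22, adjusted p = 0.00746). It passed the threshold after further quantile normalization (1.05) and without wt day 0 replicate 1 (1.17). In Dnmt1-/- cells Cldn6 rose from 9.23 and 9.60 to 11.27 and 11.02, by 1.73 (SE 0.22, adjusted p = 0.000223). In TKO cells it had reached 11.03 and 10.88 by day 4 from 8.81 and 9.47, by 1.81 (SE 0.22, adjusted p = 0.000533), and ended at 10.87 and 10.67. The first step exceeded that of wt by 1.52 (SE 0.31, adjusted p = 0.0317), but was lost in 6 of 8 fits without 1 array, all except those without wt or TKO ESC replicate 2 (adjusted p up to 0.142). Cldn6 rose by 1.07 from day 4 to day 16 in Dnmt1-/-, not called without day 4 replicate 1 (1.10, adjusted p = 0.0641) or 2 (1.03, adjusted p = 0.0892) or day 16 replicate 1 (0.94, adjusted p = 0.144). The TKO step of Cldn6 to day 4 started from a lower ESC mean, 9.14 against 9.93 in wt. No difference of Cldn6 between genotypes was called on any day. Cldn9, next to Cldn6 in the genome, was called in no comparison.

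Cldn7, which is also found on basolateral membranes away from tight junctions, was at 8.57 and 7.80 in wt ESCs, 7.30 and 7.29 in Dnmt1-/- and 7.03 and 7.29 in TKO ESCs. By day 16 the wt arrays gave 9.54 and 9.38, the Dnmt1-/- arrays 9.69 and 9.18 and the TKO arrays 9.17 and 8.98. Its rise from day 0 to day 16 was 2.14 in Dnmt1-/- cells (SE 0.27, adjusted p = 0.000213) and 1.92 in TKO cells (SE 0.27, adjusted p = 0.00167). In wt it was 1.28, not called without wt day 0 replicate 2 (0.89, adjusted p = 0.0560). From day 4 to day 16 the wt rise of 1.15 was not called without wt day 4 replicate 2 (1.03, adjusted p = 0.0909) or day 16 replicate 1 (1.07, adjusted p = 0.0700) or 2 (1.23, adjusted p = 0.0567). The Dnmt1-/- rise of 1.30 over these days was not called without day 4 replicate 2 (1.00, adjusted p = 0.145) or day 16 replicate 1 (1.04, adjusted p = 0.174). In TKO cells the rise to day 4 was 1.61, not called without TKO day 4 replicate 1 (1.39, adjusted p = 0.0586). No difference of Cldn7 between genotypes was called with all 18 arrays in the fit described. With the replicate block, Cldn7 was called for TKO against wt at day 0 (-1.02, adjusted p = 0.0425). The TKO change to day 4 exceeded the wt change by 1.48 (adjusted p = 0.0921), and this was called with the block (adjusted p = 0.0220), with joint adjustment (adjusted p = 0.0456) and without wt day 0 replicate 2 (1.87, adjusted p = 0.0430).

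Cldn8 and Cldn18 were raised most in wt EBs of day 16. Cldn8, known from the distal tubules of the kidney, was at 5.71 and 5.25 there, and the other 16 arrays, mutant EBs of day 16 included, had 3.61 to 4.19. Even the highest group mean of Cldn8 (5.48) was below the median of all signals (5.84). The wt rise from day 4 was 1.50 (2.83-fold, SE 0.19, adjusted p = 0.000274). At day 16 it was lower in Dnmt1-/- by 1.68 (SE 0.19, adjusted p = 0.000212) and in TKO by 1.51 (SE 0.19, adjusted p = 0.000219). The change of Cldn8 from day 0 to day 16 differed from wt by -1.52 in Dnmt1-/- (SE 0.27, adjusted p = 0.0199) and by -1.35 in TKO (SE 0.27, adjusted p = 0.0137). The Dnmt1-/- difference was lost without wt day 0 replicate 1 or any of the 4 Dnmt1-/- arrays (adjusted p up to 0.0854), and the TKO difference without replicate 1 of wt at day 0, of TKO at day 0 or of TKO at day 16 (adjusted p up to 0.0619). The group means of its neighbour Cldn17 lay within 0.118 of each other, and it was called in no comparison.

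Cldn18, a claudin of stomach and lung, was at 7.56 and 8.24 in wt EBs of day 16, 7.01 and 6.68 in Dnmt1-/- and 5.49 and 6.03 in TKO EBs, while all ESCs and EBs of day 4 had 4.83 to 5.54. It rose from day 4 to day 16 by 2.76 in wt (6.79-fold, SE 0.26, adjusted p = 2.46e-05) and by 1.89 in Dnmt1-/- cells (3.70-fold, SE 0.26, adjusted p = 0.00105). The TKO change was 0.54 (SE 0.26, adjusted p = 0.373). At day 16 TKO was below wt by 2.14 (4.41-fold, SE 0.26, adjusted p = 0.000161), and the TKO change from day 4 differed from that of wt by -2.22 (SE 0.37, adjusted p = 0.00582). Both calls were kept without any 1 array. The Dnmt1-/- EBs were below wt by 1.05, but not without wt replicate 2 (-0.71, adjusted p = 0.319) or Dnmt1-/- replicate 1 (-1.22, adjusted p = 0.0850) or 2 (-0.89, adjusted p = 0.233).

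Cldn2, the cation pore of leaky epithelia such as the proximal tubule, was the called member of the channel-forming group and the one member with a higher call in mutant EBs of day 16. It was at 7.02 and 6.26 in Dnmt1-/- EBs, 5.95 and 4.90 in wt and 5.32 and 4.96 in TKO EBs at day 16, and at 3.55 to 4.22 on all other arrays. The rise from day 4 to day 16 was 2.61 in Dnmt1-/- cells (6.10-fold, SE 0.31, adjusted p = 0.000340). In wt the rise of Cldn2 from day 0 to day 16 was 1.79 (SE 0.31, adjusted p = 0.00104). From day 4 it was 1.50, or 2.02 without wt day 16 replicate 2, and it was lost without wt day 4 replicate 1 (1.25, adjusted p = 0.0670) or wt day 16 replicate 1 (0.97, adjusted p = 0.0538). Dnmt1-/- EBs were above wt EBs by 1.22 at day 16 (SE 0.31, adjusted p = 0.0401). This was lost without wt replicate 2 (0.70, adjusted p = 0.355) or Dnmt1-/- replicate 1 (0.84, adjusted p = 0.328). TKO EBs were below Dnmt1-/- EBs by 1.50, lost without Dnmt1-/- replicate 1 (-1.12, adjusted p = 0.282) or TKO replicate 1 (-1.68, adjusted p = 0.0619) or 2 (-1.32, adjusted p = 0.281).

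Cldn23 was at 6.0 and 6.37 in wt EBs of day 16, 5.04 and 5.13 in Dnmt1-/- and 4.96 and 5.66 in TKO EBs, after 4.67 to 5.12 on all earlier arrays. The wt rise from day 4 was 1.30 (adjusted p = 0.00252). Dnmt1-/- EBs were below wt EBs by 1.10 at day 16 (SE 0.23, adjusted p = 0.0148), but this was not called without wt replicate 2 (-0.92, adjusted p = 0.138) or Dnmt1-/- replicate 1 (-1.05, adjusted p = 0.104) or 2 (-1.15, adjusted p = 0.0719). The TKO difference was -0.87 (SE 0.23, adjusted p = 0.0261), below the 2-fold threshold.

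**Figure D4:**
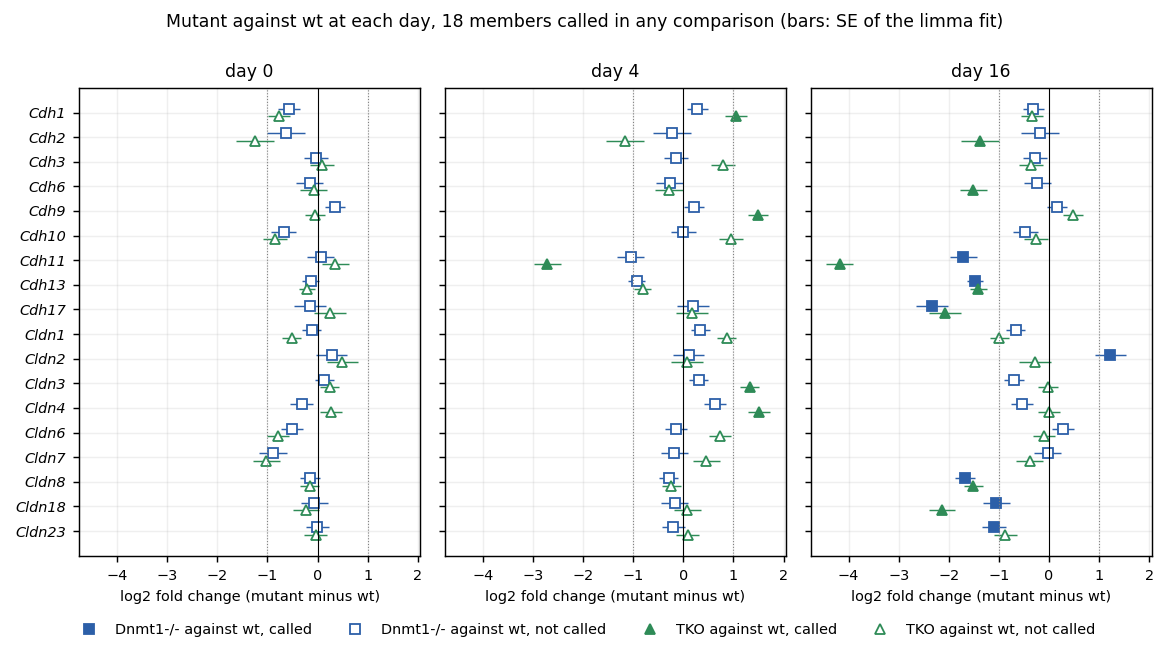
Log2 fold change of mutant against wt at day 0, day 4 and day 16 for the 18 members called in any comparison, Dnmt1-/- as blue squares and TKO as green triangles, with bars for the SE of the fit and filled symbols for calls (dotted lines at 2-fold). No symbol is filled at day 0, and at day 16 Cldn2 in Dnmt1-/- is the one filled symbol on the right.

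Counted by comparison, no member was called between genotypes in ESCs. The calls over all probe sets were 0.355% for Dnmt1-/- against wt, 0.304% for TKO against wt and 0.00563% for TKO against Dnmt1-/-. By limma, 5, 6 and 2 members had an unadjusted p under 0.05 in this order, all 5 and all 6 lower in the mutant. Both comparisons with wt use the same wt ESC arrays. The share of all probe sets at that p was not counted in any comparison. Such numbers of members therefore cannot be set against the shares called. With the replicate number as a block 1 member (Cldn7) was called for TKO against wt. At day 4, Dnmt1-/- against wt had no call either (3 members with an unadjusted p under 0.05, 0.738% of all probe sets called), and 1 member, Cdh11, was called when p-values of all comparisons were adjusted jointly. For TKO against wt at day 4 the calls were Cdh1, Cdh9, Cldn3 and Cldn4 as higher and Cdh11 as lower, beside 2.92% of all probe sets, 2.11% higher and 0.805% lower. TKO against Dnmt1-/- gave 3 calls (Cdh9, Cdh11 and Cldn3) at day 4, when 0.848% of all were called, none of them without Dnmt1-/- replicate 2 or TKO replicate 1 and 1 without TKO replicate 2.

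At day 16, 7 members were called for Dnmt1-/- against wt (2.89% of all probe sets, 1.53% higher and 1.36% lower), Cldn2 as higher and Cdh11, Cdh13, Cdh17, Cldn8, Cldn18 and Cldn23 as lower. Without Dnmt1-/- replicate 1, 4 members were called. TKO against wt also gave 7, all lower, which were Cdh2, Cdh6, Cdh11, Cdh13, Cdh17, Cldn8 and Cldn18 (5.83% of all, 2.4% higher and 3.43% lower). The 2 comparisons share the wt arrays. TKO against Dnmt1-/- had 3 lower calls (Cdh6, Cdh11 and Cldn2) when 1.07% of all were called, 0.13% higher and 0.941% lower, and 1 of the 3 was left without Dnmt1-/- replicate 1 or either TKO array. Among probe sets with 1 symbol, 3.52% were called at day 16 for Dnmt1-/- against wt, 7.64% for TKO against wt and 1.57% for TKO against Dnmt1-/-, and at day 4 the shares were 0.5%, 3.6% and 1.22% in this order. The median difference of the 48 members from wt at day 16 was -0.19 in Dnmt1-/- and -0.12 in TKO EBs, beside -0.03 and 0.05 for all probe sets.

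The changes over time were also compared between mutant and wt. Shares of all probe sets are given for calls only, not for an unadjusted p. Between day 0 and day 4 no member differed for Dnmt1-/- (0% of all probe sets called, 4 members with an unadjusted p under 0.05 by limma), and the same comparison gave no member under each of the other settings tried. For TKO 6 members differed, beside 1.38% of all. Between day 4 and day 16 the members were 2 for Dnmt1-/- (0.884% of all) and 7 for TKO (2.89% of all). Between day 0 and day 16 they were 4 for Dnmt1-/- (1.37% of all) and 5 for TKO (3.91% of all). The shares among probe sets with 1 symbol were 1.7%, 4.12% and 5.15% for TKO over the 3 periods and 0%, 1.26% and 1.68% for Dnmt1-/-. Of the 24 differences called here, 6 were kept without any 1 array, and these are Cdh11 from day 0 to day 4, Cdh11, Cdh13 and Cdh17 from day 0 to day 16, and Cldn1 and Cldn18 from day 4 to day 16, all for TKO.

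A fit of only the arrays compared, which takes the spread from 4 or 8 arrays, called fewer members in most comparisons and more in none. For TKO against wt at day 4 it called 5, as many as with all arrays, with Cdh2 in place of Cdh1. It called 8 of the 13 from day 4 to day 16 in wt, without Cdh1, Cdh2, Cdh6, Cldn2 and Cldn23. At day 16 it called 3 of the 7 for Dnmt1-/- against wt (Cdh11, Cdh13 and Cldn8) and 5 of the 7 for TKO against wt, without Cdh2 and Cdh17. None of the TKO calls against Dnmt1-/- was made by that fit. Over all 105 calls of members 59 were made by it as well. Such a fit leaves the log2 differences as they are, so it could not change a direction.

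Other genes of the junctions were read beside the cadherins and claudins. Among 17 genes of the catenins and the adherens junction, 3 were called lower in wt EBs between day 0 and day 4, Ctnnal1 (-1.49), Jup (plakoglobin, -1.08) and Plekha7 (-1.04), and Jup returned by day 16 (1.27). The TKO cells had Ctnnd2 (delta-catenin of neurons) and Vcl (vinculin) as higher calls at day 4, with changes of 1.20 and 1.17, and Ctnnal1 as a lower one. Of 22 measured tight junction genes, 4 rose and 1 fell in wt from day 0 to day 4. In Dnmt1-/- and in TKO cells 7 rose and 1 fell. The one that fell in wt was Jam2 (-3.98), and it was called lower in Dnmt1-/- (-3.84) and TKO cells (-2.15) as well. At day 4, 2 of the 22 were called higher and 1 lower in TKO than in wt EBs. Ocln (occludin) rose in wt from day 4 to day 16 by 2.05 (adjusted p = 0.000126) and at day 4 it exceeded wt by 1.42 in TKO EBs (adjusted p = 0.00363). Of 9 measured desmosome genes, Dsg2, Dsc2 and Dsp were called higher from day 0 to day 16 in each genotype, Dsc2 by 3.02 in wt, 2.94 in Dnmt1-/- and 2.51 in TKO cells.

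Factors known to act on cadherin genes were looked at next to them. Of 11 genes of epithelial to mesenchymal transition, 7 were called higher in wt between day 0 and day 4, among them Snai2 (2.82), Zeb2 (2.14), Twist1 (1.88) and the intermediate filament gene Vim (1.48). The count was 4 in Dnmt1-/- and 3 in TKO cells. Their mean signal at day 4 was 8.13 and 7.93 in wt, 7.58 and 7.96 in Dnmt1-/- and 7.09 and 7.18 in TKO EBs. In TKO EBs of day 16, 7 of the 11 were called below wt, with the largest differences in Snai2 (-2.74), Zeb2 (-2.39), Vim (-2.10) and Zeb1 (-1.59).

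Of 13 genes on a list of epithelial regulators and other epithelial genes, 3 fell in wt between day 0 and day 4, Klf5 (-2.02), Grhl2 (-1.46) and Grhl1 (-1.17). In Dnmt1-/- cells 5 fell, among them Klf5 (-1.53) and Grhl2 (-1.44). At day 4 Grhl2 (1.54), Klf5 (1.30), St14 (1.23) and Esrp1 (1.22) were higher in TKO than in wt EBs. The list mean was 6.99 and 7.06 in wt, 7.30 and 6.88 in Dnmt1-/- and 7.76 and 7.91 in TKO EBs of day 4. The mean of the 10 pluripotency markers on the same arrays was 7.31 on each wt array, 8.82 and 7.54 in Dnmt1-/- and 9.59 and 9.99 in TKO EBs, with 8 of the 10 called higher in TKO than in wt. The part of these lists in the day 4 values of Cdh1, Cldn3 and Cldn4 was not tested.

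Markers of other cell types that EBs can hold were read beside the day 16 values of Cdh17, Cldn2, Cldn8 and Cldn18. The mean of 14 markers of visceral endoderm and liver was 9.64 and 9.41 in wt, 10.13 and 9.91 in Dnmt1-/- and 8.66 and 8.14 in TKO EBs of day 16. None of the 14 was below the median of all signals in wt or Dnmt1-/- EBs, and 1 was in TKO EBs. Of those called, Alb (albumin) had the largest difference from wt, -3.02 in Dnmt1-/- and -7.77 in TKO EBs. In Dnmt1-/- EBs Apob (1.66), Amn (1.46) and Dab2 (1.45) were called above wt. The mean of 10 endothelial markers, Cdh5 included, was 7.68 and 7.07 in wt, 7.52 and 7.28 in Dnmt1-/- and 7.16 and 6.89 in TKO EBs, and that of 7 measured trophoblast markers was 7.05 and 7.30, 7.58 and 7.41, and 7.70 and 7.47 in this order. Of 10 cardiac muscle markers 5 were called lower in TKO than in wt EBs of day 16 and 2 in Dnmt1-/- EBs. Their part in the member values was not tested.

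The other 30 members, 15 cadherin and 15 claudin probe sets, were called in no comparison of the fit. Among them Cldn5 alone was called under any setting that used all arrays, for a TKO minus wt change from day 4 to day 16 of -1.07 (adjusted p = 0.0583), which passed with joint adjustment (adjusted p = 0.0463), omission of dim probe sets (adjusted p = 0.0458) and the replicate block (adjusted p = 0.0432). Leaving out 1 array added calls of Cdh8 (Dnmt1-/- change, day 0 to day 4, without Dnmt1-/- day 4 replicate 2: 1.07) and Cldn9 (Dnmt1-/- against wt, day 16, without wt day 16 replicate 2: 1.02). It also added calls of Cldn5. With all arrays, its wt rise from day 4 to day 16 (0.98, adjusted p = 0.00512) and its TKO excess over wt at day 4 (0.95, adjusted p = 0.0131) missed only the 2-fold threshold. The first was 1.27 without wt day 16 replicate 2, and the second 1.05 without wt day 4 replicate 2. The group means of the 30 spanned 0.118 to 1.05 between the lowest and the highest group, with a median of 0.466, against 1.37 to 5.42 for the 18 called members. The widest of them were Cldn12 (1.05), Cldn9 (0.988), Cldn5 (0.981), a claudin of endothelial cells, and Cldn11 (0.858), known from myelin. Both probe sets of Cdh18, Cdh24 and Cldn10 were among the 30. Omission of the dimmest 30% of probe sets, by mean over all arrays, kept 30 of the 48 members and removed the called members Cdh9, Cdh17, Cldn1, Cldn2 and Cldn8. Their calls rest on the groups in which they are high. Even there the group means of Cdh9 (4.74), Cldn1 (5.19) and Cldn8 (5.48) were below the median of all signals (5.84). Cdh10 passed narrowly, at percentile 31.3 of the mean signal, with its highest group mean (5.77) in TKO EBs of day 4, also below that median. By mean over all arrays, 9 of the 18 called members and 20 of the 30 others were below it.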

How the data were processed

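Total RNA of whole ESC cultures or EBs was hybridized to Affymetrix GeneChip Mouse Gene 1.0 ST arrays, and the authors deposited log2 signals made by RMA (version not given in the sources used here), 35512 probe sets on 18 arrays. Background correction, quantile normalization and probe summary were therefore done before deposit, which can compress changes of dim probe sets. Per the labels each array is 1 sample of 1 group, with 2 arrays for each of 9 groups. Of the probe sets, 21789 had 1 gene symbol in the platform annotation, 1621 several and 12102 none listed.

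Group means of all 18 arrays were fitted with limma 3.58.1 (R 4.3.3, lmFit and eBayes), with 9 residual and 3.32 prior degrees of freedom, and 24 contrasts were taken. Calls needed a log2 difference of 1 and an adjusted p below 0.05 over all probe sets, after a test on simulated data. Promoters were read with Python 3.11.15. Members, gene lists and tests were chosen with earlier results of these data known. Values per array are given for members called in any comparison, but not for every group of each. Full statistics are given for up to 6 members per comparison, and at most 4 called genes per other list. Alternatives were the omission of dim probe sets, median centring, a trended robust fit, joint adjustment, a fit of the arrays compared, quantile normalization, replicate blocks and leaving out each array. With 2 arrays per group, their number limits the precision.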

Additional observations from a re-analysis of the deposited data

Results flagged for a closer look

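For 24 pairs of a member and a period, the change over time in a mutant differed from that in wt in a test of the difference itself (limma, all 18 arrays, adjusted over all probe sets). All values are the mutant change minus the wt change on the log2 scale.

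For Dnmt1-/- from day 4 to day 16, the difference was -2.54 for Cdh17 (SE 0.45, adjusted p = 0.019) and -1.38 for Cldn8 (SE 0.27, adjusted p = 0.038). The first was lost in 6 of 8 fits without 1 array, all but those without a wt array of day 16 (adjusted p up to 0.0903). The second was lost in 6 of 8, all but those without wt replicate 2 of day 4 or of day 16 (adjusted p up to 0.170). From day 0 to day 16 it was -1.78 for Cdh11 (SE 0.38, adjusted p = 0.042), -1.34 for Cdh13 (SE 0.23, adjusted p = 0.017), -2.18 for Cdh17 (SE 0.45, adjusted p = 0.034) and -1.52 for Cldn8 (SE 0.27, adjusted p = 0.02). None of these 4 was kept in every fit without 1 array.

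For TKO from day 0 to day 4, the difference was 1.81 for Cdh1 (SE 0.30, adjusted p = 0.014), 1.56 for Cdh9 (SE 0.28, adjusted p = 0.02), 1.80 for Cdh10 (SE 0.35, adjusted p = 0.024), -3.07 for Cdh11 (SE 0.38, adjusted p = 0.0047), 1.38 for Cldn1 (SE 0.27, adjusted p = 0.025) and 1.52 for Cldn6 (SE 0.31, adjusted p = 0.032). Of these, Cdh11 was kept in every fit without 1 array.

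For TKO from day 4 to day 16, it was -1.38 for Cdh1 (SE 0.30, adjusted p = 0.027), -2.26 for Cdh17 (SE 0.45, adjusted p = 0.016), -1.86 for Cldn1 (SE 0.27, adjusted p = 0.0021), -1.34 for Cldn3 (SE 0.28, adjusted p = 0.019), -1.51 for Cldn4 (SE 0.32, adjusted p = 0.022), -1.27 for Cldn8 (SE 0.27, adjusted p = 0.024) and -2.22 for Cldn18 (SE 0.37, adjusted p = 0.0058). Cldn1 and Cldn18 were kept in every fit without 1 array. Cdh1 was kept only without wt day 4 replicate 2 (adjusted p up to 0.108 otherwise). Cdh17 was lost without wt day 4 replicate 1, either TKO array of day 4 or TKO day 16 replicate 1 (adjusted p up to 0.0647). Cldn8 was lost without these or without wt day 16 replicate 1 (adjusted p up to 0.0996).

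For TKO from day 0 to day 16, it was -4.54 for Cdh11 (SE 0.38, adjusted p = 4.2e-05), -1.20 for Cdh13 (SE 0.23, adjusted p = 0.011), -2.33 for Cdh17 (SE 0.45, adjusted p = 0.01), -1.35 for Cldn8 (SE 0.27, adjusted p = 0.014) and -1.91 for Cldn18 (SE 0.37, adjusted p = 0.011). Cldn18 was lost without TKO day 0 replicate 2 (-1.77, adjusted p = 0.0537).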

How the results depend on the processing

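No call changed direction with median centring, further quantile normalization or 1 array left out. The other settings leave the log2 differences as they are, so they could not change a direction. Of the 105 calls of members, 103 were kept with each array centred on its median, all 105 with a trended robust fit and with replicate blocks, 103 with the adjustment over all comparisons together and 104 with further quantile normalization. Of the 75 calls of members that passed the filter on dim probe sets, all were kept. This filter leaves the log2 differences as they are and adjusts over fewer probe sets, so it could hardly lose a call. The fit of only the arrays compared kept 59, and leaving out 1 array at a time 58 in every such fit. Day pairs below stand for changes over time.

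With only the arrays compared, the members called were 8 for wt day 4 to 16, 3 for Dnmt1-/- day 4 to 16, 0 for TKO day 4 to 16, 1 for TKO day 0 to 16, 3 for Dnmt1-/- against wt at day 16, and 0 for TKO against Dnmt1-/- at day 4 and at day 16. For the changes minus the wt change they were 0 for Dnmt1-/- over both later periods, and 3, 2 and 1 for TKO from day 0 to 4, 4 to 16 and 0 to 16. Quantile normalization gave 5 for TKO day 4 to 16. Joint adjustment gave 1 for Dnmt1-/- against wt at day 4. Omitting dim probe sets gave 4 for Dnmt1-/- against wt at day 16, and 0 and 2 for the Dnmt1-/- minus wt changes from day 4 to 16 and 0 to 16. The cause was not tested, except that the last setting tests fewer members.

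Labels give the arrays of each group the numbers 1 and 2, and the arrays came from independent experiments, but no source used here ties a number to an experiment. Deviations of same-numbered arrays correlated at 0.0409 to 0.501 over 36 pairs of groups (median 0.273). With the replicate block no call was lost and calls were added for Cdh2, Cdh6, Cdh9, Cdh11, Cldn3, Cldn5, Cldn7 and Cldn18, so that 1 member was called for TKO against wt at day 0, 5 for TKO against Dnmt1-/- at day 16 and 11 for the TKO minus wt change from day 4 to 16.

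Without 1 array, counts ranged from 5 to 5, 10 to 12 and 9 to 12 in wt (day 0 to 4, 4 to 16 and 0 to 16), 3 to 4, 3 to 6 and 6 to 7 in Dnmt1-/- and 3 to 6, 0 to 2 and 2 to 2 in TKO. They ranged from 4 to 6 for TKO against wt at day 4, 0 to 4 for TKO against Dnmt1-/- at day 4, 4 to 8 for Dnmt1-/- against wt, 7 to 8 for TKO against wt and 1 to 2 for TKO against Dnmt1-/- at day 16. For the changes minus the wt change they were 0 to 2 (day 4 to 16) and 0 to 3 (day 0 to 16) for Dnmt1-/-, and 1 to 6, 3 to 6 and 4 to 6 for TKO.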
